A study of Mus musculus with 23 samples.

Results

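Mouse embryonic stem (ES) cells that keep endogenous mouse Ago2 as their Argonaute (line B9) were compared with ES cells in which all 4 mouse Argonautes are mutated and a human Ago2 transgene takes their place (line E7). The labels give B9 the genotype Blm-/-;Ago1,3,4-/- and E7 the genotype Blm-/-;Ago1,2,3,4-/-;CreERT2;hAgo2fl. The comparison was defined by these labels, and it was chosen with earlier results of these data known. It used the exon and intron columns of both lines: 5 of the 23 samples of the series, 2 of B9 and 3 of E7, over 18412 genes. Neither line was treated. Both lack Blm, a RecQ helicase, as well as Ago1, Ago3 and Ago4. Beyond the source of Ago2, E7 carries CreERT2 (a Cre recombinase that tamoxifen switches on) and a floxed transgene, and the promoter of the transgene is not given in the labels. Each genotype is represented by 1 line, so an effect of human against mouse Ago2 cannot be told apart from these and other differences between the lines. Wild-type AB2.2 cells (2 libraries) and 2 untreated Argonaute-free clones (Blm-/-;Ago1,2,3,4-/-;CreERT2, 1 library each) serve here as reference levels. All cells were grown on gelatin with serum and leukemia inhibitory factor, and polyadenylated RNA was sequenced with strand kept. Nothing in the labels says that the libraries of a line came from separate cultures, so tests measure the spread between these libraries, which may be technical. The main tests pool this spread over all 4 groups with the 2 clones as 1 group, so the difference between the clones enters it too.

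Argonaute proteins hold a microRNA and use its seed, bases 2 to 8, to find matching sites in the 3′ untranslated regions (UTRs) of messenger RNAs. Together with the Tnrc6 scaffold proteins they shorten poly(A) tails and lower translation and stability of these targets. ES cells make most of their microRNAs from the miR-290-295 and miR-302 clusters, whose members share a seed, and from the related miR-17 family. Cell cycle inhibitors such as Cdkn1a, Rbl2 and Lats2 and the Nodal antagonists Lefty1 and Lefty2 are known targets.

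The microRNAs below define the match that was searched for. Their seeds are in capitals, in RefSeq sequence with GRCm38.p6 coordinates. The first 4 share 1 seed, miR-17-5p holds the same letters moved by a base, and let-7a-5p has an unrelated seed.
miR-294-3p: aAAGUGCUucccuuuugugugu
miR-295-3p: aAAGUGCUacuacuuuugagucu
miR-291a-3p: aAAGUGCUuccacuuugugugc
miR-302b-3p: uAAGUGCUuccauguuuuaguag
miR-17-5p: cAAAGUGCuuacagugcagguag
let-7a-5p: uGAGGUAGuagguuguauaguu

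A match to the shared seed reads AGCACTT on the sense strand of a 3′ UTR. Sites are shown, with the match in capitals, for 3 genes that rose in E7 (Ankrd52, Zbtb38, Abca1) and for the known targets Lats2, Rbl2 and Lefty2, because the results below turn on these genes (GRCm38, GENCODE M21 models). They were picked after their values were seen.
Ankrd52 chr10:128393368-128393396, plus strand: cgcagctctaaAGCACTTgcttcaagtaa
Ankrd52 chr10:128393388-128393416, plus strand: ttcaagtaataAGCACTTttgtgaaaagg
Zbtb38 chr9:96684685-96684713, minus strand: gaaatcagtagAGCACTTggaatctgact
Zbtb38 chr9:96683592-96683620, minus strand: ttgtatactgtAGCACTTtgctgttaacc
Abca1 chr4:53030996-53031024, minus strand: ccctcattccaAGCACTTtatgctgtctg
Lats2 chr14:57691076-57691104, minus strand: agtatggaaagAGCACTTattttgtggat
Lats2 chr14:57690977-57691005, minus strand: ttgtatctgatAGCACTTgtccacagcta
Rbl2 chr8:91123819-91123844, plus strand: tttttcaataaAGCACTTataaatta
Lefty2 chr1:180897906-180897934, plus strand: cacccagtttaAGCACTTacatgggtaaa

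The matches of Ankrd52 lie so close that the printed sites overlap, whereas those of Zbtb38 and Lats2 lie apart. Of the 9 genes called below, Ankrd52 and Zbtb38 hold 2 matches, Esr1, Abca1 and Smyd1 hold 1, and Slc5a1, Hhip, Cfp and Mmrn2 hold 0. AGCACTT stands in 17.1% of the 3′ UTRs of all genes tested. A match to another seed, that of miR-203 (CATTTCA), also stands in 5 of the 9, against 16.8% of all. The median UTR of the 9 has 2666 bases, against 1150 for all genes tested.

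The tables give the authors' mean of normalised reads per gene and line, from which the reads of single libraries were worked out. B9 had 29177497 and 26460496 exon reads in all, and E7 had 23816744, 20501829 and 17593942. Libraries are numbered from the deepest to the shallowest, and which deposited sample each one is was not worked out. Of the 5 ES cell markers used to check the labelled cell type, 4 had library values, and their summed level was 123610 and 129720 normalised reads in B9 and 134900, 128280 and 131600 in E7. The 8 markers of feeder fibroblasts summed to 211 and 292 in B9 and 93.0 to 112 in E7, and 3 of them had no read in any of the 5 libraries. Most of the B9 sum was Thy1, with 177 and 231 in B9 and 54.6, 50.6 and 39.6 in E7. A longer list of 10 fibroblast genes summed to 1410 and 847 in B9 and 891, 635 and 621 in E7, which overlap.

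The libraries of each line fell into 2 sets that crossed the genotypes. B9 library 1 and E7 library 1 had 9.25 and 9.03% of their reads in introns. B9 library 2 and E7 libraries 2 and 3 had 15.2, 13.6 and 13.4%. Across 11410 genes, the difference of B9 library 1 from library 2 correlated with that of E7 library 1 from the mean of libraries 2 and 3 (Pearson's r = 0.650), which describes shared structure and is no test. B9 therefore holds 1 library of each set, whereas E7 holds 1 of the low-intron set and 2 of the high-intron set. Below, a difference within the low-intron set is E7 library 1 minus B9 library 1, and within the high-intron set it is the mean of E7 libraries 2 and 3 minus B9 library 2. A pair of alternatives chosen after seeing the data has the set as a term, 1 over all 9 libraries (the 9-library set fit) and 1 over the 7 libraries left without the clones (the 7-library set fit). The difference of B9 library 1 from library 2 also correlated with that of E7 library 2 from library 3 (r = 0.489), both of the high-intron set. Shared structure within a set is not taken up by this term.

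**Figure D1:**
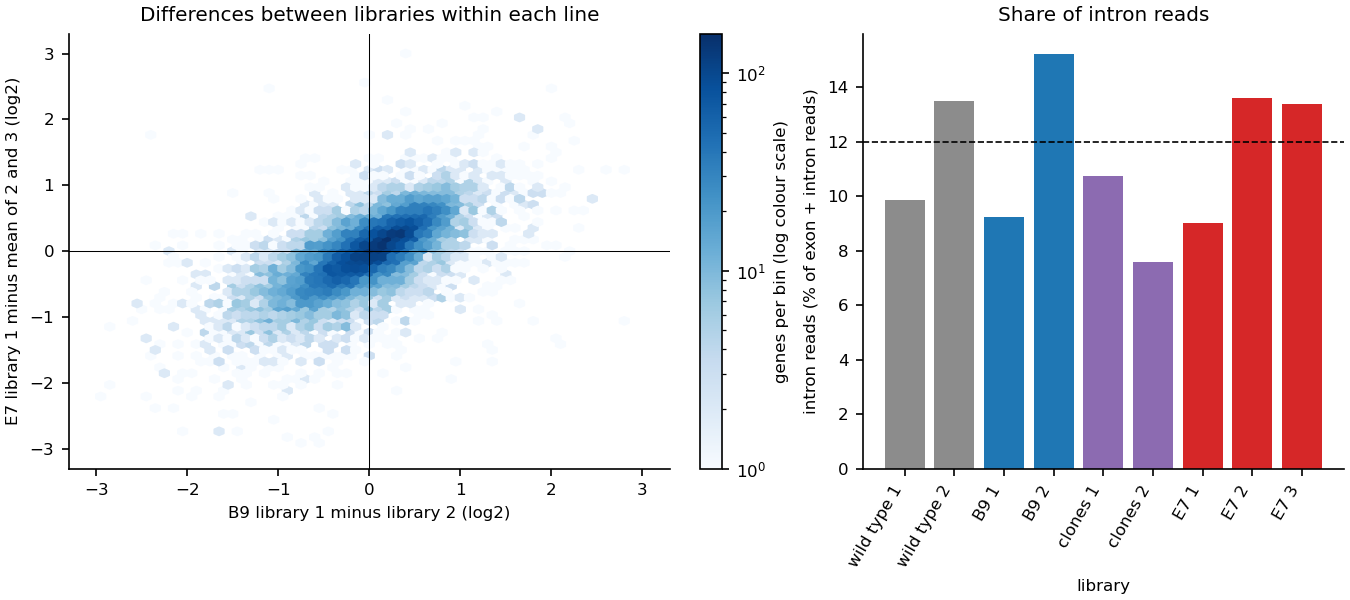
The left panel plots, for 11410 genes, B9 library 1 minus library 2 (x axis, log2) against E7 library 1 minus the mean of libraries 2 and 3 (y axis, log2), with colour for genes per bin. The cloud lies along the diagonal (r = 0.650), and the right panel shows the percent of intron reads in each library, with a dashed line at 12% between the 2 sets.

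For the Argonaute genes, deletions were visible only in part. Ago1 (ENSMUSG00000041530, chromosome 4, 126435012 to 126468583, - strand) had 3514 and 4693 normalised exon reads in wild type and 0 reads in all 5 libraries of B9 and E7, so wild type was at least 2851-fold above B9 and at least 3613-fold above E7 (bounds from 3 reads over a line's libraries). Ago3 had 1326 and 1568 reads in B9 and 1378, 1963 and 1227 in E7, against 366 and 607 in wild type. Its labelled mutation is thus not visible in gene-wide reads, which cannot show a lesion that leaves a transcript, and the lines overlapped (log2 difference 0.05, SE 0.47, adjusted p = 0.99). Ago4 was low in every library, at 7.82 and 48.1 in wild type, 5.75 and 6.73 in B9 and 8.09, 18.4 and 6.39 in E7.

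Ago2 (ENSMUSG00000036698, chromosome 15, 73095844 to 73184935, - strand), the gene that sets the lines apart, was similar in exons and different in introns. Its exon reads were 5876 and 7593 in B9 and 3578, 5250.1 and 6799 in E7, which overlap (log2 difference -0.41, SE 0.29, adjusted p = 0.763). Intron reads were 138 and 302 in B9 and 1151, 1231 and 1336 in E7, where every E7 library lay above both B9 libraries. The intron difference was 2.60 (SE 0.41, adjusted p = 0.0848) and was not called, whereas it was called in the 7-library set fit (2.46, SE 0.25, adjusted p = 0.000607). The log2 level of exons less that of introns, centred on all genes in each library, was 2.76 and 2.06 in B9 and -1.01, -0.57 and -0.30 in E7. This fell by 3.04 (SE 0.34, adjusted p = 0.0261), by 3.77 within the low-intron set and by 2.49 within the high-intron set. The call was lost without either B9 library and without E7 library 1 or 2 (adjusted p over the 5 omissions 0.0483 to 0.62), and in the 7-library set fit (adjusted p = 0.118), and it held in the 9-library set fit (adjusted p = 0.0383). In wild type this measure was 2.85 and 2.0, and in the clones, which the labels give no Ago2 transgene, -0.77 and -0.87. Whether exon reads of the human transgene were counted at mouse Ago2 was not tested. Blm (ENSMUSG00000030528, chromosome 7, 80454733 to 80535119, - strand) had 3159 and 3702 exon reads in B9 and 2383, 3058 and 2644 in E7. All 3 E7 libraries were lower, by less than the test resolved (log2 difference -0.35, SE 0.28, adjusted p = 0.796), and reads of the mutated gene persisted in both lines.

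Few genes differed by more than the spread of the libraries allowed to be called. Of 13201 genes tested in exons, 9 rose in E7 (0.0682%) and 0 fell (0%), at an adjusted p below 0.05 in limma. At an unadjusted p below 0.05, 747 were higher and 371 lower. The median log2 difference of all genes was -0.03 and the median SE was 0.336. In simulated data of the same depth, the spread of each gene was drawn independently for each library. Its size came from the residuals of all 4 groups, the clones included. These already hold counting noise, and counting noise was added again. The test called 16% of the genes given a 2-fold rise, 58% of those given 4-fold and 80% of those given 8-fold (50 genes each). A rise of 2-fold thus mostly went uncalled there, and 4 unchanged genes were called. Deviations shared between libraries were not simulated. The 9-library set fit called 12 higher and 0 lower, with 539 lower at an unadjusted p below 0.05. These 12 held 8 of the 9 genes and not Cfp (adjusted p = 0.0507). In the 7-library set fit, which also leaves out the clones, the median SE was 0.206, and 337 genes were higher (2.55%) and 143 lower (1.08%), with all 9 genes among the 337. Of all genes tested, 14.8% had every E7 library above both B9 libraries and 14.4% had every one below.

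Esr1, the estrogen receptor alpha gene (ENSMUSG00000019768, chromosome 10, 4611593 to 5005614, + strand), had the largest difference. It had 0 reads in both B9 libraries and 314, 269 and 181 normalised reads in E7, from 310, 234 and 142 reads. Wild type held 4 and 0 reads, and the clones had 305 and 551 normalised reads. E7 was at least 177-fold above B9, with 3 reads over both B9 libraries as the bound (adjusted p = 0.0017). Of the 9 called genes, Esr1 alone was called under each of the 5 omissions of 1 library (adjusted p 0.00759 to 0.0314). Intron reads were few, 0 and 1.34 in B9 and 15.0, 3.67 and 0 in E7. The lines with more than 4 Esr1 exon reads in a library are those labelled CreERT2. The ERT2 portion of CreERT2 is taken from the estrogen receptor, and whether reads of that transgene were counted at Esr1 was not tested.

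Smyd1 (ENSMUSG00000055027, chromosome 6, 71213940 to 71322233, - strand), a histone methyltransferase gene known from heart and skeletal muscle, was the gene called in both exons and introns. Its exon reads were 405 and 504 in B9 and 2365, 2547 and 4126 in E7, with no overlap, a log2 difference of 2.69 (SE 0.29, adjusted p = 0.00875). In introns it had 274 and 126 in B9 and 1529, 1153 and 1724 in E7, a rise of 2.95 (SE 0.33, adjusted p = 0.00788). Exon values within the low- and high-intron sets were 2.54 and 2.68. Wild type, at 267 ± 3.66 exon reads (SD, n = 2), lay below both lines. The exon call was lost without either B9 library and without E7 library 2 (adjusted p over the 5 omissions 0.0115 to 0.0644), and the intron call without E7 library 1 or 3 (0.000943 to 0.0557).

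Among transport genes, 2 rose, the glucose and sodium cotransporter Slc5a1 and the cholesterol exporter Abca1. Slc5a1 (ENSMUSG00000011034, chromosome 5, 33104219 to 33162870, + strand) went from 86.3 and 34.6 exon reads in B9 to 787, 522 and 571 in E7, a log2 difference of 3.47 (SE 0.45, adjusted p = 0.0284). Its introns differed by 4.61 (SE 0.66, adjusted p = 0.0539), on 6.76 and 1.34 reads in B9. Abca1 (ENSMUSG00000015243, chromosome 4, 53030787 to 53159895, - strand) had 290.4 and 226 in B9 and 2299, 1443 and 2278 in E7 (2.93, SE 0.41, adjusted p = 0.0365), with wild type between them at 781 and 419.9. Within the low- and high-intron sets Slc5a1 differed by 3.17 and 3.94, and Abca1 by 2.98 and 3.0.

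Hhip, Cfp and Mmrn2 code for secreted or surface proteins. Hhip (ENSMUSG00000064325, chromosome 8, 79965851 to 80058006, - strand), which binds and sequesters Hedgehog ligands, had 149.5 and 288 exon reads in B9 and 1612, 1439 and 3293 in E7, a rise of 3.24 (SE 0.43, adjusted p = 0.0314). Cfp (ENSMUSG00000001128, chromosome X, 20925454 to 20931555, - strand), which codes for the complement factor properdin, had 134 and 178 in B9 and 826, 598 and 1158 in E7, a rise of 2.42 (SE 0.35, adjusted p = 0.0407). Mmrn2 (ENSMUSG00000041445, chromosome 14, 34375465 to 34404287, + strand), an extracellular glycoprotein gene known from endothelium, had 1006 and 1011 in B9 and 3673, 3431 and 3678 in E7 (1.83, SE 0.21, adjusted p = 0.0146). Of the 9, its libraries differed least within each line relative to their mean, and its difference was 1.87 in the low-intron and 1.81 in the high-intron set. Hhip differed by 3.42 and 2.91 in these sets, and Cfp by 2.61 and 2.22.

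Ankrd52 and Zbtb38, whose seed matches are shown above, rose as well. Ankrd52 (ENSMUSG00000014498, chromosome 10, 128377115 to 128408704, + strand), a regulatory subunit gene of protein phosphatase 6 complexes that act on Argonaute phosphorylation, had 1196 and 1511 exon reads in B9 and 4532, 4652 and 6577 in E7. The rise was 1.94 (SE 0.29, adjusted p = 0.0407), with 1.92 and 1.87 within the sets. Its introns had 138 and 160.5 reads in B9 and 129, 195 and 195 in E7, which overlap (difference 0.19, SE 0.35, adjusted p = 1). Of all 11154 genes tested for exons less introns, Ankrd52 had the highest moderated statistic upward, at 1.72 (SE 0.27, adjusted p = 0.358), which was not called. Zbtb38 (ENSMUSG00000040433, chromosome 9, 96682770 to 96752831, - strand), which codes for a methyl-CpG binding zinc finger protein, had 659 and 564 in B9 and 1737, 2124 and 2193 in E7 (1.72, SE 0.24, adjusted p = 0.0378), and its introns differed by 1.40 (SE 0.41, adjusted p = 0.959).

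Saa3, an acute phase serum amyloid gene, completed the 10 named rises without being called. It had 25.9 and 25.0 in B9 and 183, 168 and 355 in E7 (difference 3.08, SE 0.48, adjusted p = 0.0637), and an adjusted p of 0.0131 in the 7-library and 0.0579 in the 9-library set fit.

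In the Argonaute-free clones, Ankrd52 (8410.4 and 15419.7 exon reads), Slc5a1 (1838 and 956) and Hhip (6988 and 3328) lay above every E7 library, and Mmrn2 (2751 and 2177) lay below. Clone values of Esr1, Abca1, Smyd1, Cfp and Zbtb38 overlapped those of E7. None of the 9 differed between the clones and E7 in limma, with the smallest adjusted p at 0.0758 (Ankrd52). Against wild type, E7 was higher for all 9 (adjusted p from 0.000705 to 0.0343), and B9 differed for none of them (adjusted p from 0.443 to 1).

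The calls in exons depended on single libraries. Without B9 library 1 or 2 there were 7 and 1, and without E7 library 1, 2 or 3 there were 5, 1 and 2. Esr1 was among them each time, Slc5a1 was among them without B9 library 1, and Smyd1 without E7 library 1 or 3. The other 6 named calls (Hhip, Abca1, Cfp, Ankrd52, Mmrn2, Zbtb38) were lost under every omission. Their smallest adjusted p in those fits were 0.0579 (Hhip), 0.0853 (Abca1), 0.0853 (Cfp), 0.0702 (Ankrd52), 0.0569 (Mmrn2) and 0.0628 (Zbtb38), and no log2 difference changed sign.

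**Figure D2:**
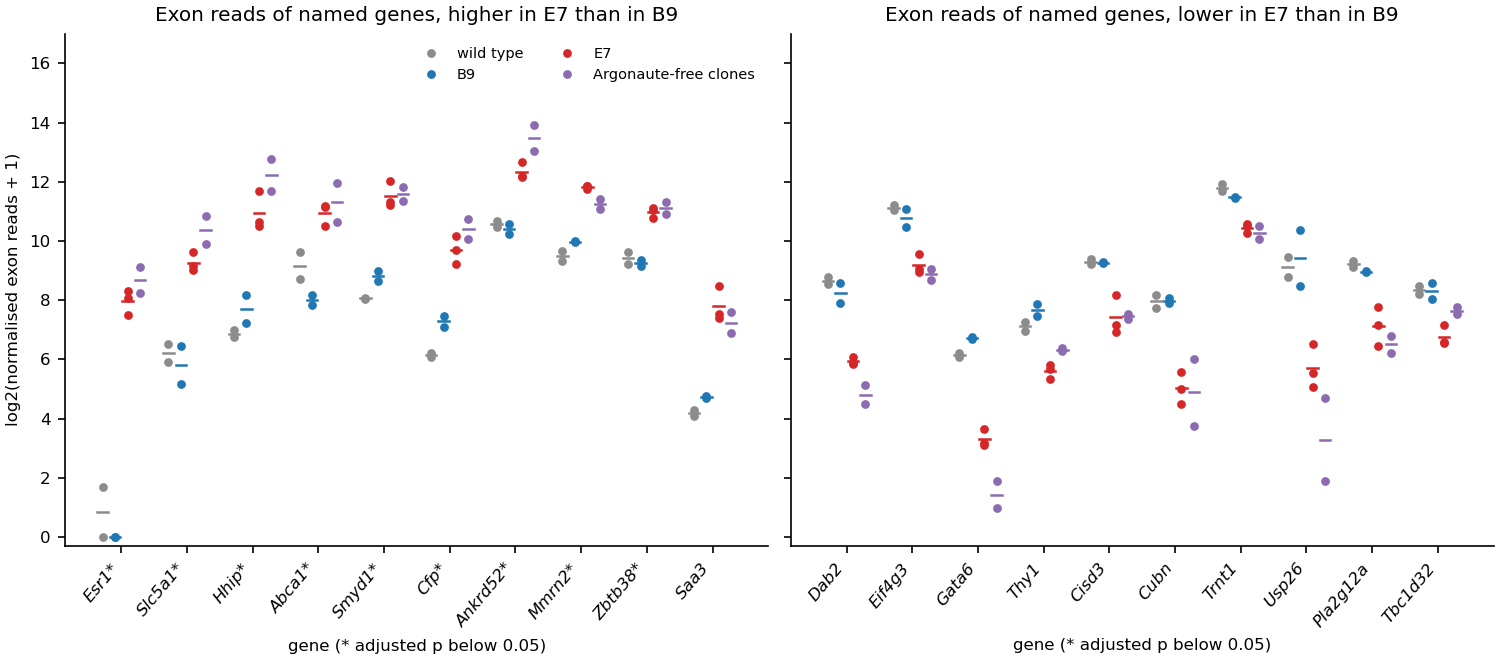
Each point is 1 library, on log2(normalised exon reads + 1), of wild type (grey), B9 (blue), E7 (red) and the clones (purple), for the 10 named genes higher and the 10 lower in E7, with a bar at the mean of each group and a star at the 9 called genes. All 3 E7 libraries lie above both B9 libraries for every gene on the left and below them for every gene on the right, as the rule that chose them favours.

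No gene was called lower in E7, and the 10 with the strongest statistics are given as values. Dab2, an endocytic adaptor gene of visceral endoderm, had 239.6 and 379 exon reads in B9 and 57.6, 66.7 and 56.2 in E7, a log2 difference of -2.31 (SE 0.40, adjusted p = 0.0894). Gata6, the transcription factor that drives primitive endoderm, had 103 and 108 in B9 and 8.09, 11.5 and 7.67 in E7 (-3.41, SE 0.64, adjusted p = 0.0947). Cubn, a receptor partner of Dab2 in visceral endoderm, had 266 and 237 in B9 and 31.4, 47.2 and 21.7 in E7 (-2.94, SE 0.63, adjusted p = 0.154). Wild type lay on the B9 side in all 3, with 441 and 370.0 exon reads of Dab2, 65.9 and 74.0 of Gata6 and 288 and 213 of Cubn. The clones had 33.8 and 21.3, 0.964 and 2.67 and 12.5 and 64.0 in the same order.

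Eif4g3, which codes for a translation initiation scaffold, had 2138 and 1433 exon reads in B9 and 497, 527 and 750.1 in E7 (-1.59, SE 0.28, adjusted p = 0.0894). Thy1, a surface glycoprotein gene and 1 of the feeder fibroblast markers, had 177 and 231 in B9 and 54.6, 50.6 and 39.6 in E7 (-2.06, SE 0.39, adjusted p = 0.0947). Trnt1, which adds the CCA end to transfer RNAs, had 2796 and 2875 in B9 and 1239.9, 1439 and 1514 in E7, with the smallest SE of the 10 (-1.03, SE 0.22, adjusted p = 0.154). Usp26 varied most within B9, with 354 and 1313 there and 32.4, 46.0 and 90.7 in E7 (-3.70, SE 0.81, adjusted p = 0.155). Cisd3, Pla2g12a and Tbc1d32 differed by -1.84, -1.83 and -1.54, with adjusted p of 0.125, 0.155 and 0.176. In the 7-library set fit, the adjusted p of the 10 ran from 0.00182 (Usp26) to 0.0201 (Pla2g12a). In the 9-library set fit none of them was called, with adjusted p from 0.0743 (Dab2) to 0.131 (Cubn).

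In introns, 1 of 11464 genes rose (Smyd1, 0.00872%) and 0 fell (0%) in limma, with 290 higher and 124 lower at an unadjusted p below 0.05 and 16 higher and 4 lower called in the 7-library set fit (11 and 1 in the 9-library set fit). Next in order after Smyd1, Slc5a1 and Ago2 were Plagl1 and Irak3. Slc5a1, Ago2, Plagl1 and Irak3 were not called, and all 4 were called in the 7-library set fit (adjusted p = 0.00255 for Slc5a1, 0.000607 for Ago2, 0.00191 for Plagl1 and 0.00297 for Irak3). Plagl1, an imprinted zinc finger gene, had 103 and 94.7 intron reads in B9 and 561, 743 and 715 in E7 (2.75, SE 0.45, adjusted p = 0.104). Its exon reads were 1242 and 1111 in B9 and 4889, 5121 and 6407 in E7 (2.21, SE 0.40, adjusted p = 0.0894). Irak3, a negative regulator of Toll-like receptor signalling, had 45.1 and 12.8 intron reads in B9 and 319, 539.7 and 143 in E7 (3.54, SE 0.59, adjusted p = 0.104). Among the lowest were Prrc1 (-1.34), Hydin (-2.01), Sfmbt2 (-1.14) and Gtpbp10 (-1.43), with adjusted p from 0.86 to 0.907.

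Exons less introns separates a change in the level of mature transcripts from one shared with unspliced RNA. Of 11154 genes, 0 rose (0%) and 1 fell (Ago2, 0.00897%), with 224 higher and 148 lower at an unadjusted p below 0.05. After Ankrd52, the largest upward statistics belonged to 9530068E07Rik (2.05, SE 0.38, adjusted p = 0.83), Spryd3 (1.36), the actin regulator Wipf1 (1.69) and the GATA-type repressor Trps1 (1.28). Besides Ankrd52, 9530068E07Rik also has 2 matches to the ES cell seed and Trps1 has 1, while Spryd3 and Wipf1 have 0. After Ago2, the lowest were the calpain subunit Capn2 (-1.44), Jmjd4 (-1.24), Tmem47 (-1.20) and the mitochondrial import subunit Tomm5 (-1.17), none of them called.

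For 42 abundant genes the 3 E7 libraries could not be separated, and only the authors' means of the deposited table are given. The glucose transporter gene Slc2a3 had 72711 in B9 and 41679.5 in E7, a ratio of 0.573 in the authors' deposited table. The same table gives ratios of 0.716 for the glycolytic enzyme Pkm, 0.749 for the nucleolar gene Npm1 and 1.33 for the pluripotency gene Dppa5a. These 4 are the furthest from 1 on the log scale, and no error can be attached to them.

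Lists of genes were then read for microRNA function, cell states and pathways: 27 lists with 393 members tested in exons. No member was called in limma (smallest adjusted p 0.0894). At an unadjusted p below 0.05, 39 were higher and 22 lower, beside 747 and 371 of all 13201 genes tested. Counts below give members whose 3 E7 libraries all lay above or all below both B9 libraries, against 14.8% and 14.4% of all genes, and members called in the 7-library set fit, against 2.55% and 1.08%. In the 9-library set fit, Ifitm3 was the 1 list member called. List medians stand against -0.03 for all genes, and counts above and below 0 against 6273 and 6927 of all genes.

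Known targets of ES cell microRNAs were mostly higher in E7. Of 21 tested, 19 had a difference above 0, with a median of 0.64 in exons and 0.18 in introns of 18. The exon median was 0.48 within the low-intron set and 0.63 within the high-intron set. Against wild type the list had a median of -0.38 in B9 and 0.48 in E7, so B9 below wild type is part of the difference. Every E7 library was above both B9 libraries for 10 members and below for 0, and 7 were higher and 0 lower in the 7-library set fit (Nr2f2, Lats2, Lefty2, Lefty1, Ei24, Rbl2, Cfl2).

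Lats2, a kinase of the Hippo pathway, had 205 and 182 exon reads in B9 and 514, 554 and 394 in E7, with no overlap. Its log2 difference was 1.32 (SE 0.27, adjusted p = 0.125), against 0.58 in introns, and the clones, with no Argonaute, had 2679.8 and 3032. Rbl2, a pocket protein that restrains E2F, had 289 and 355 in B9 and 589.6, 593 and 865 in E7 (1.07, SE 0.28, adjusted p = 0.24). The Nodal antagonists Lefty1 and Lefty2 were highest in the high-intron E7 libraries. Lefty2 had 3016 and 3065 in B9 and 5545, 12440.4 and 13518 in E7 (1.68, SE 0.36, adjusted p = 0.15), and 0.88 and 2.08 within the sets. Lefty1 had 2948 and 2679 in B9 and 5248, 7622 and 10332 in E7 (1.41, SE 0.45, adjusted p = 0.349).

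Nr2f2, an orphan nuclear receptor gene, had 3.83 and 3.84 exon reads in B9 and 45.5, 35.7 and 84.3 in E7 (3.44, SE 0.62, adjusted p = 0.0894). Its gene model holds 0 matches to the seed, and its introns differed by 3.78. Ei24, a p53-induced gene, had 3731 and 3228 in B9 and 6905, 6616 and 7389.6 in E7 (1.0, SE 0.24, adjusted p = 0.198). For the cell cycle inhibitor Cdkn1a the lines overlapped, with 800.4 and 1918 in B9 and 1684, 2001 and 3379.8 in E7 (0.86, SE 0.40, adjusted p = 0.601). Irf2 had the widest spread, with 0 and 4.80 in B9 and 12.1, 4.60 and 89.4 in E7 (2.96, SE 1.14, adjusted p = 0.471). Rhoc and Suv39h1 were the members below 0, at -0.43 and -0.31, and neither stood apart from B9.

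Among 20 genes of the microRNA pathway, the median was -0.01. The Tnrc6 scaffolds, which link Argonaute to the deadenylases, were the 3 members with every E7 library above both B9 libraries. Tnrc6a had 3792 and 3312 exon reads in B9 and 6094, 6611 and 6714 in E7, a difference of 0.87 (SE 0.19, adjusted p = 0.155) with -0.04 in introns. Tnrc6b had 2837 and 3527 in B9 and 4632, 5171 and 5650.5 in E7 (0.70, SE 0.22, adjusted p = 0.334), with -0.23 in introns. Tnrc6c had 3528 and 3017 in B9 and 3999.7, 3979 and 3721 in E7 (0.26). In the 7-library set fit the adjusted p was 0.00949 for Tnrc6a, 0.0193 for Tnrc6b and 0.216 for Tnrc6c. The nucleases Drosha and Dicer1 and the Drosha partner Dgcr8 differed by -0.04, 0.13 and -0.01, all with overlapping libraries.

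Eif4enif1 was the 1 member below, at -0.17.

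The let-7 pathway list, 15 genes around the other microRNA family that acts in early development, had a median of 0.03. Nras had 5515 and 6942 in B9 and 3317, 4023 and 4088 in E7 (-0.71, SE 0.22, adjusted p = 0.334). The RNA-binding protein gene Lin28a had 24285 and 17764 in B9 and 17075, 14050.5 and 8029.8 in E7 (-0.74, SE 0.32, adjusted p = 0.56). Plagl2 had 995 and 841 in B9 and 1519, 1366 and 1478 in E7 (0.67, SE 0.21, adjusted p = 0.334).

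Genes were also grouped by matches to seeds in their longest annotated 3′ UTR, for 12891 genes tested in exons. The ES cell match AGCACTT stood in 17.1% of these UTRs, and the other matches searched on the sense strand were GCACTTT (miR-17 family, 14.2%), CTACCTC (let-7, 10.7%), CATTTCA (miR-203, 16.8%) and ACATTCC (miR-206, 11.2%). The ES cell and miR-17 matches overlap in AGCACTTT, which counts for both. Median exon differences were -0.042 for 10687 genes with 0 ES cell matches, 0.063 for 1792 with 1 and 0.094 for 412 with 2 or more. In introns the order was the opposite, at -0.027, -0.040 and -0.106. Exons less introns gave -0.042, 0.090 and 0.159. These medians describe these libraries without a test.

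Matches to miR-17 gave -0.043, 0.074 and 0.159 in exons for 0, 1 and 2 or more. For let-7 the medians were -0.026, -0.003 and -0.044, with no such order. The miR-203 match gave -0.030, -0.003 and 0.021, and the miR-206 match -0.031, 0.013 and 0.122. In exons less introns, genes with 2 or more matches had the higher median in all 5 families, also for let-7 (0.046 against -0.024 with 0 matches), miR-203 (0.097 against -0.028) and miR-206 (0.148 against -0.028). Over UTRs of all lengths, the order in that readout was thus not particular to the ES cell seed. The miR-206 class with 2 or more matches holds 186 genes with a median UTR of 3758 bases, against 1030 for genes without that match. UTR length moved with the number of matches in every family. With genes split into 3 equal groups of short, middle and long UTRs, genes with 0 ES cell matches had exon medians of -0.059, -0.047 and -0.012, and genes with 1 match 0.055, 0.058 and 0.066. In exons less introns, long UTRs with 0 and with 2 or more matches had medians of 0.022 and 0.153 for the ES cell family. Those of miR-17 were 0.030 and 0.208, of miR-206 0.058 and 0.195 and of miR-203 0.056 and 0.1225. For let-7 they were 0.064 and 0.048, so its order was not kept there.

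The library sets moved with this pattern. Against the mean of both B9 libraries, genes with 1 or more ES cell matches had medians of 0.014, 0.125 and 0.129 in E7 libraries 1 to 3, and genes with 0 had -0.016, -0.038 and -0.035. On the same scale B9 libraries 1 and 2 had -0.027 and 0.027 with a match and 0.012 and -0.012 without. For genes with a match, E7 library 1 thus lay between the B9 libraries. Within the low-intron set the medians were 0.028 with a match and -0.039 without. Within the high-intron set they were 0.072 and -0.042.

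**Figure D3:**
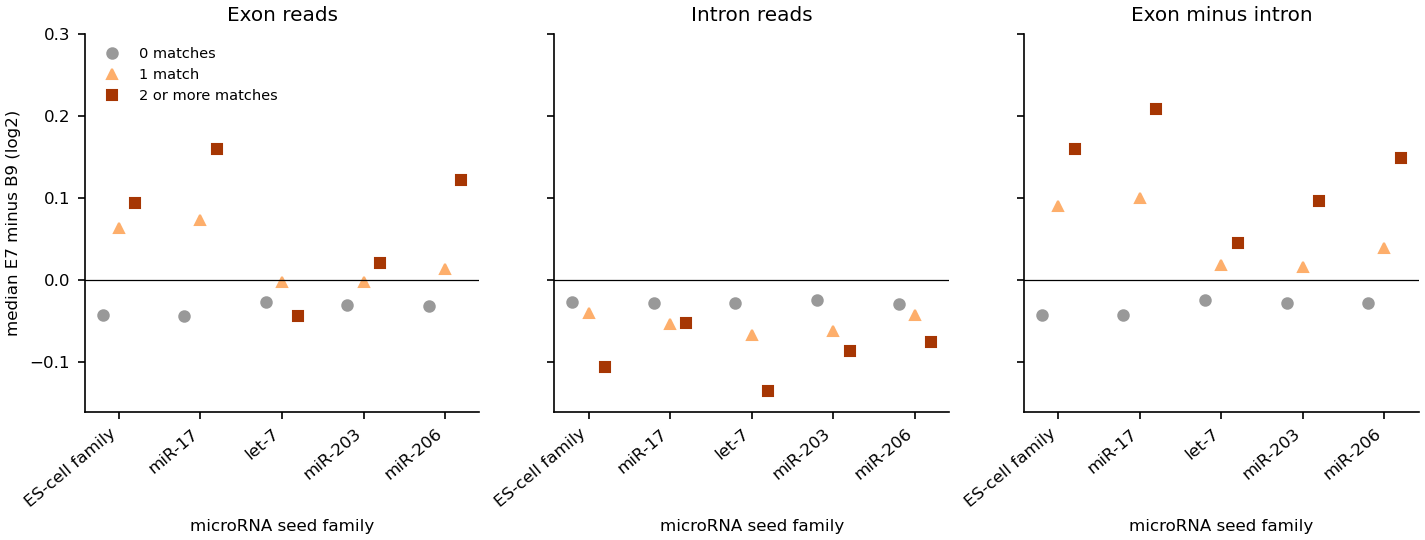
Points give the median E7 minus B9 difference (y axis, log2) of genes with 0, 1 or 2 or more seed matches in the 3′ UTR, for 5 seed families (x axis) in exons, introns and exons less introns. In exons the ES cell family runs from -0.042 to 0.094 and miR-17 from -0.043 to 0.159, while in introns the genes with 2 or more matches lie below those with 0 in all 5 families.

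The list of primitive endoderm, an extraembryonic lineage that ES cultures can form, had the lowest median. Of 14 tested, 12 were below 0, with a median of -1.09 (-0.94 and -0.90 within the sets). For 7 members every E7 library was below both B9 libraries and for 0 above, and 3 were lower in the 7-library set fit (Gata6, Dab2, Cubn). Amn, the membrane partner of Cubn, had 59.4 and 15.4 exon reads in B9 and 2.02, 2.30 and 5.11 in E7 (-3.0, SE 0.82, adjusted p = 0.256). The receptor gene Pdgfra had 119 and 63.4 in B9 and 33.4, 39.1 and 30.7 in E7 (-1.32, SE 0.50, adjusted p = 0.465). The median against wild type was 0.19 in B9 and -1.12 in E7. In bulk RNA, fewer cells of a type and less RNA per cell cannot be told apart. The summed level of the 5 defining markers was 484 and 449 in B9 and 171, 197 and 126 in E7. The whole list summed to 21077 and 22257 in B9 and 21751, 20007 and 21930 in E7, which overlap, most of it from Lama1, Lamb1 and Sparc, matrix genes that ES cells express too (0.07, 0.20 and -0.02).

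Of 19 germline and meiosis genes tested, 17 were below 0 (median -0.97), 10 had all E7 libraries below B9 and 0 above, and 4 were lower in the 7-library set fit (Dazl, Stra8, Tex19.1, Rhox5). Rhox5, an X-linked homeobox gene, had 743 and 365 exon reads in B9 and 228, 128 and 115 in E7 (-1.79, SE 0.45, adjusted p = 0.215). Stk31, a testis kinase gene, had 147 and 197 in B9 and 64.7, 47.2 and 69.0 in E7 (-1.50, SE 0.40, adjusted p = 0.246). Tex19.1, which restrains retrotransposons in germ cells, had 2661 and 1892 in B9 and 1170.1, 1341 and 1216 in E7 (-0.85, SE 0.29, adjusted p = 0.379).

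The 2-cell-like state, a rare subpopulation of ES cultures that turns on genes of the early embryo, gave the list with the highest median. Of 11 tested, 10 were above 0 with a median of 1.07, 7 had all E7 libraries above B9, and 0 were called in the 7-library set fit. Zscan4c had 135 and 109.5 exon reads in B9 and 418, 704 and 243 in E7 (1.76, SE 0.49, adjusted p = 0.259). Zscan4d had 217 and 205 in B9 and 497, 1178 and 341 in E7 (1.47, SE 0.49, adjusted p = 0.369). E7 library 2 was the highest in both, and the Zscan4 copies share sequence, so the split of reads between them is uncertain. Wild type, at 379 mean reads of Zscan4c, lay above B9 too. Against wild type the list had a median of -1.0 in B9 and 0.41 in E7, so B9 below wild type is part of the difference. The whole list summed to 14554 and 13267 reads in B9 and 11704, 16202 and 10038 in E7, which overlap, and most of that sum was Eif1a (-0.35).

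The naive pluripotency list had a median close to that of all genes. Of 20 tested, 13 were above 0 (median 0.04), 3 stood apart above and 2 below, and 2 were higher in the 7-library set fit. Klf2, a naive factor, had 8419.8 and 7903 exon reads in B9 and 21882, 14218 and 18598 in E7 (1.14, SE 0.27, adjusted p = 0.196). Gdf3, a TGF-beta family ligand gene of ES cells, had 6006 and 4428 in B9 and 8368, 7041 and 7569.7 in E7 (0.57, SE 0.26, adjusted p = 0.588). Prdm14, a repressor of DNA methylation in naive cells, had 666 and 1113 in B9 and 1083, 1271 and 2099 in E7 (0.73, SE 0.33, adjusted p = 0.588). Among 10 formative and primed genes (median -0.03) members differed in both directions. Their median was -0.52 within the low-intron set and 0.19 within the high-intron set. Zic2 had 636 and 641 in B9 and 1344, 1453 and 1154 in E7 (1.04, SE 0.24, adjusted p = 0.176), and Pou3f1 had 867 and 472 in B9 and 251, 409 and 222 in E7 (-1.17, SE 0.41, adjusted p = 0.404).

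Smad2/3 targets, which respond to Nodal and activin, had 8 of 18 members with all E7 libraries above B9 and 2 below (median 0.26), and 4 were higher in the 7-library set fit. Lefty1, Lefty2 and Gdf3, whose library values are given above, were among them. Of 12 BMP targets (median 0.31), the inhibitor of differentiation gene Id4 had 157 and 259 in B9 and 521, 652 and 714 in E7 (1.62, SE 0.45, adjusted p = 0.263), and the Notch effector Hey1 had 148 and 165 in B9 and 76.9, 46.0 and 76.7 in E7 (-1.26, SE 0.41, adjusted p = 0.369).

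Interferon genes had a median of 0.69 over 18 members, 7 of them apart above and 2 apart below. Ifitm3, an antiviral membrane protein gene, had 2601 and 959 in B9 and 7569, 4706 and 3775 in E7 (1.70, SE 0.45, adjusted p = 0.244), and was the 1 member called in the 7-library set fit (adjusted p = 0.000871).

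Of 27 genes of the extracellular matrix and cytoskeleton, 7 stood above and 1 below (median 0.41). Against wild type this list had a median of -0.51 in B9 and -0.60 in E7. The integrin Itgb5 had 674 and 467 in B9 and 1495, 949 and 1270.1 in E7 (1.12, SE 0.31, adjusted p = 0.263). The laminin chain Lamc1 had 15559.9 and 15326 in B9 and 26102, 23466 and 24355 in E7 (0.67, SE 0.19, adjusted p = 0.286). Among 21 p53 targets, 18 were above 0 with a median of 0.31. Ei24, given above, and Perp, a desmosomal p53 effector gene, were higher in the 7-library set fit. Perp had 468 and 364 in B9 and 918, 638 and 919 in E7 (0.98, SE 0.31, adjusted p = 0.359).

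Neuroectoderm genes had a median of 0.49 over 8 members. Against wild type their median was -0.62 in B9 and 0.04 in E7, so B9 below wild type is most of this difference. The intermediate filament gene Nes had 532 and 297 in B9 and 1142, 695 and 1145 in E7 (1.28, SE 0.37, adjusted p = 0.283), below wild type at 1816 and 2059. Pax6 had 109 and 60.5 in B9 and 253, 154 and 198 in E7 (1.27, SE 0.39, adjusted p = 0.334). Mesoderm and trophoblast lists had medians of 0.24 (10 genes) and -0.12 (10 genes). Both changed sign between the library sets, from -0.07 within the low-intron to 0.64 within the high-intron set for mesoderm, and from -0.36 to 0.07 for trophoblast. The mesodermal receptor gene Kdr had 65.2 and 52.8 in B9 and 74.8, 228 and 139 in E7 (1.17, SE 0.48, adjusted p = 0.525). Gata3, a trophoblast factor, had 28.8 and 30.7 in B9 and 136, 94.3 and 86.9 in E7 (1.77, SE 0.53, adjusted p = 0.31).

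Metabolic lists had medians below 0. Of 19 genes of glycolysis and hypoxia, 18 were below 0 (median -0.33) and 5 apart below. Slc2a1, the ubiquitous glucose transporter, had 19200.4 and 16748 in B9 and 12098, 12989 and 8554 in E7 (-0.70, SE 0.24, adjusted p = 0.404). Pgk1 had 16072 and 15502 in B9 and 10418, 13506 and 8904 in E7 (-0.55, SE 0.26, adjusted p = 0.606). Against wild type this list had a median of 0.54 in B9 and 0.17 in E7. Of 22 genes of cholesterol synthesis, 19 were below 0 (median -0.28), with Acat2 at -0.56 (adjusted p = 0.582). The integrated stress response list had a median of -0.27 over 21 genes. Its lowest p belonged to Chac1 (-0.91) and Mthfd2 (-0.66). Its medians were 0.03 within the low-intron set and -0.55 within the high-intron set.

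Imprinted genes had a median of 0.04 over 19, with Plagl1 (above) and Peg3 the highest. Peg3 had 2985 and 2180.2 exon reads in B9 and 4286, 6447 and 6059 in E7 (1.11, SE 0.25, adjusted p = 0.176). Usp29, its imprinted neighbour, had 146 and 161 in B9 and 42.5, 92.0 and 43.4 in E7 (-1.45, SE 0.48, adjusted p = 0.369). Genes of the Blm complex, RecQ helicases and recombination (20 tested, median -0.15) included Recql at -0.51 and Palb2 at -0.38, with adjusted p of 0.625 and 0.728. The remaining lists had medians of -0.25 (DNA methylation and silencing, 18 genes), 0.17 (immediate early genes, 16), 0.28 (clustered protocadherins, 12), 0.23 (metallothioneins, 5), -0.50 (Y-linked genes, 7) and -0.44 (fibroblast genes, 3). The smallest p in each belonged to Uhrf1 (-0.46), Jund (0.97), Pcdhgb2 (1.08), Mt3 (-1.23), Kdm5d (-2.25) and Thy1 (-2.06), in the same order, and no adjusted p was below 0.0947.

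**Figure D4:**
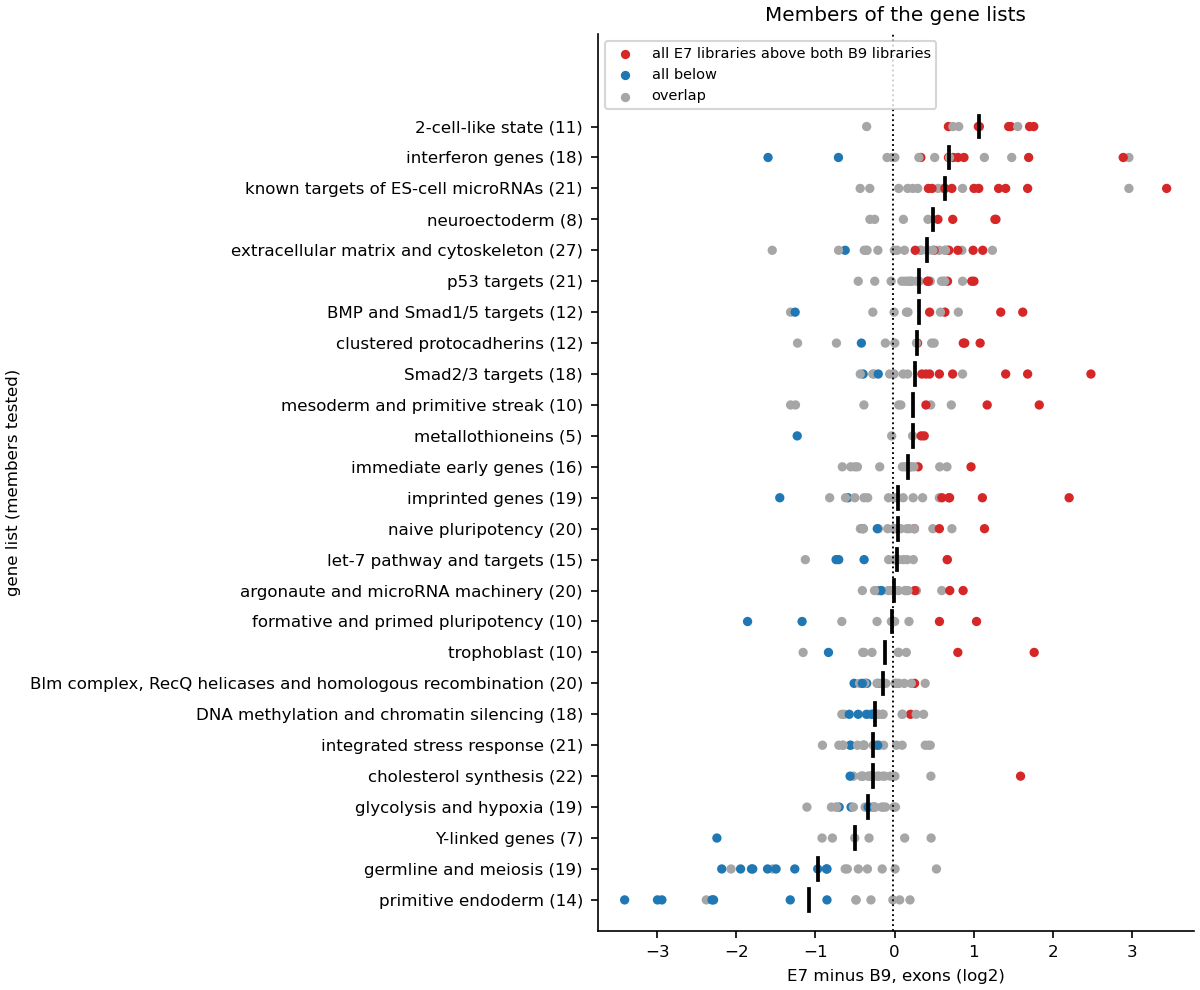
Each point is 1 gene, with its E7 minus B9 difference in exons (x axis, log2), for the lists with 5 or more members tested (y axis, number tested in brackets). Black bars are list medians, the dotted line is the median of all genes (-0.03), red marks genes with all E7 libraries above both B9 libraries and blue those with all below, and the medians run from -1.09 for primitive endoderm to 1.07 for the 2-cell-like state.

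The median E7 minus B9 difference of chromosome 8 genes was above that of every other chromosome. It came with a high median in E7 library 1 and low medians in both B9 libraries. Over 712 genes of chromosome 8 the median E7 minus B9 difference was 0.17 in exons, and it was 0.21 over 639 in introns. The other 18 autosomes and X had exon medians from -0.10 to 0.03. Against wild type, the chromosome 8 median in exons was -0.08 and -0.17 in the B9 libraries, where the lowest of the other chromosomes were -0.02 and -0.08. In E7 it was 0.27 in library 1, -0.11 in library 2 (lowest of the other chromosomes -0.06) and -0.01 in library 3, so library 1 alone lay above wild type. Introns gave 0.28, -0.12 and -0.01 for the same libraries. The clones had 0.30 and 0.44 in exons. Within the low-intron set the chromosome 8 difference was 0.37, and within the high-intron set 0.12. Hhip, Rbl2, Klf2, Jund and Irf2 lie on this chromosome. Their differences within the high-intron set, which holds no E7 library 1, were 2.91, 1.01, 1.04, 0.75 and 1.96. That of Irf2 rested on E7 library 3 alone, as its library values above show. Lonrf1, named below, lies on chromosome 8 too (1.44 within the high-intron set).

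**Figure D5:**
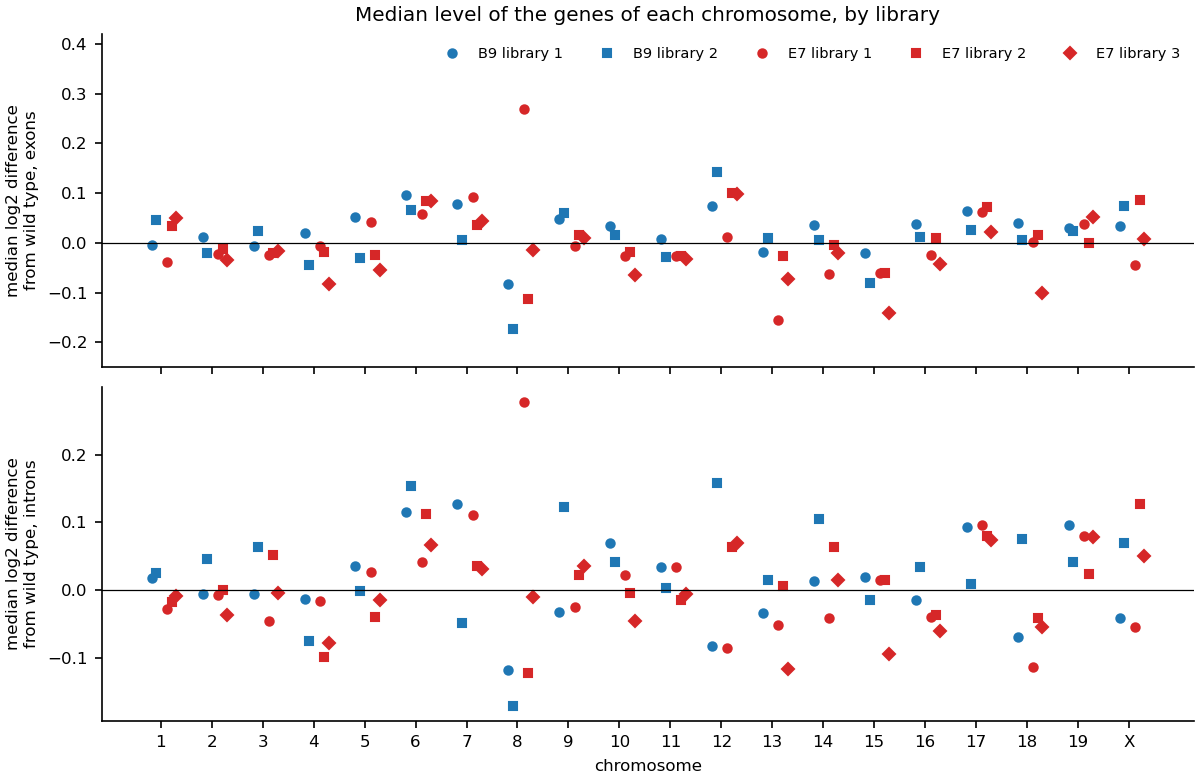
Points give the median difference of each B9 and E7 library from the mean of wild type (y axis, log2) over the genes of each chromosome (x axis), in exons (top) and introns (bottom). On chromosome 8, E7 library 1 is at 0.27 in exons and 0.28 in introns, above the other 4 libraries.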

How the data were processed

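Reads were mapped by the authors with TopHat2 2.0.12 to mm10 and normalised with DESeq, per the submitters' processing notes (counter and annotation: not given in the sources used here). The deposited exon and intron tables hold, per gene and line, the mean of normalised reads (read signal divided by a size factor), the unit used throughout. Each mean was searched for the whole read numbers that give it. In exons, 18311 of 18412 E7 values had a single solution, 59 were settled as the only one within 4-fold between libraries, and 42 abundant genes (11.2% of the E7 sum) were left out of tests. B9 had a single solution for every value. Tested on simulated means, the search returned 99.446% of E7 and 100% of B9 values, with 0 wrong. Intron libraries were paired with exon libraries by the correlation of their deviations (mean r = 0.479 in E7, 0.556 in B9), on which exons less introns rest.

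log2(normalised reads + 1) was fitted with limma 3.58.1 (R 4.3.3, trended prior) over the 9 libraries of the 4 genotypes, for genes with a mean of at least 10, and a gene counted as called where the Benjamini-Hochberg adjusted p for E7 minus B9 was below 0.05. The 2 clones were fitted as 1 group. Their median absolute log2 difference was 0.570, against 0.366 between the B9 libraries and 0.305 to 0.425 between those of E7. Fold changes on this scale understate those of low genes. Named genes are the 10 strongest in each direction in exons and 5 in introns and exons less introns, called genes first and ordered by log2 difference, then by moderated statistic, plus Ago1 to Ago4, Blm and the 2 or 3 members of each list with the smallest p; other genes were named after their values were seen, and a few that the rule names are not reported here. The cell type markers and lists, like the comparison itself, were chosen with earlier results of these data known. Positions and 3′ UTRs come from GENCODE M21 (18025 of 18412 genes matched by symbol, 326 by synonym). Alternatives covered the samples fitted, pseudocount, filter, scaling, prior, each library left out, and the library sets.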

Additional observations from a re-analysis of the deposited data

How the results depend on the processing

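No paired analysis was possible because the columns are means of a line and carry no replicate number; the library set, read from intron shares, was used as a term instead. The 9 genes higher in exons became 5 with B9 and E7 alone in the fit, 3 with no filter on low values, 1 with a prior without a trend, and 1 to 7 with 1 library left out; with the library set as a term 12 were called (8 of the 9, without Cfp), and 337 when the clones were left out too. The 0 lower became 1 with a pseudocount of 8, 2 without a trend, 0 with the set as a term and 143 when the clones were left out too. In introns the 1 higher gene became 2 with B9 and E7 alone, 0 without a trend, 0 to 3 with 1 library left out, 11 with the set as a term and 16 with the set and without the clones, and the 0 lower became 1 and 4 in the latter fits. The 1 gene lower in exons less introns (Ago2) became 0 with B9 and E7 alone, without a filter, without a trend, and with the set and without the clones, and 0 to 1 with 1 library left out. The cause of these moves was not tested; fits without a library have fewer samples. None of the 9 genes changed sign under the 14 alternatives run, and Esr1 was called in all 14. Rescaling by medians of ratios or upper quartiles kept 9 and 8 of the 9 calls. Library values, 2 and 3 a line, limit what could be called.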

Other observations

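The 7-library set fit, chosen after seeing the data, called genes outside the lists. By the smallest adjusted p, the 5 higher ones were Galnt6, Plekhm1, Rragd, Dpysl3 and Lonrf1. Rragd, a Rag GTPase gene of lysosomal nutrient sensing, had 2236 and 1050.2 exon reads in B9 and 4927, 4599 and 4682 in E7, a difference of 1.72 (SE 0.20, adjusted p = 0.00483) in that fit and an adjusted p of 0.0947 in the main one. Plekhm1, a gene of lysosome fusion, had 2485 and 2199 exon reads in B9 and 4769, 4918 and 4727 in E7 (1.06, SE 0.12, adjusted p = 0.00483). Galnt6, a mucin-type glycosyltransferase gene, had 787 and 673 exon reads in B9 and 2163, 2151 and 1894 in E7 (1.51, SE 0.17, adjusted p = 0.00483). The 5 lower ones were Pttg1, Gabarapl1, Trim52, Fam208b and Eid1. Pttg1, which codes for securin, had 543 and 839 exon reads in B9 and 169.9, 284 and 245 in E7 (-1.68, SE 0.19, adjusted p = 0.00483), and the autophagy gene Gabarapl1 had 984 and 1819 exon reads in B9 and 341, 522 and 714 in E7 (-1.54, SE 0.18, adjusted p = 0.00483). In the main fit the adjusted p of these 10 genes was 0.0637 to 0.583.

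The match AGCACTT stood in the 3′ UTR of 118 of the 330 higher genes with a UTR (35.8%), in 13 of the 139 lower ones (9.35%) and in 17.1% of all genes tested. Their median UTR lengths were 1682, 1153 and 1150 bases, so length moved with the match, and its part was not tested. The miR-203 match stood in 23.9% of the higher and 20.9% of the lower genes. Chromosome 8 held 53 of the 337 higher and 2 of the 143 lower genes, beside 712 of the 13201 tested.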
